A study of Homo sapiens with 11 samples.

Results

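The genes described are 36 members of the NF-kB system and of the inflammatory response that it drives: the transcription factor subunits, their inhibitors, signalling regulators, survival genes, surface proteins, chemokines and cytokines. They were chosen by name, as the identifiers that map to these 36 symbols among the 58037 identifiers of the count table. The rule itself uses no measured value, but earlier results of these data were known when the members were chosen. Shares of members called are therefore not those of a blind choice. Bulk RNA sequencing covered 11 libraries of human acute myeloid leukaemia (AML) cells. The line OCI-AML3, long used as a model of AML, is known for a mutated NPM1 gene. OCI-AML3-FLT3-ITD carries in its name the internal tandem duplication of FLT3, a growth factor receptor kinase of blood progenitors whose duplicated form signals without ligand. How the duplication was introduced and whether the line is 1 clone are not given in the labels. The groups were OCI-AML3-FLT3-ITD exposed to 100 nM FHD-286 for 16 h (n = 2), OCI-AML3-FLT3-ITD control (n = 3), OCI-AML3 exposed to 100 nM FHD-286 for 16 h (n = 3) and OCI-AML3 control (n = 3). All were grown in RPMI medium with serum, and the labels do not say whether controls received a vehicle. FHD-286 inhibits BRG1 and BRM, the ATPases that power the BAF chromatin remodelling complexes. OCI-AML3-FLT3-ITD is written FLT3-ITD below.

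NF-kB is a family of transcription factors that bind DNA as dimers and are held in the cytoplasm by inhibitors of the IkB family. Signals from tumour necrosis factor, interleukin-1 and Toll-like receptors activate the IkB kinases, which mark the inhibitors for degradation and free the dimers to enter the nucleus. There they induce cytokines, chemokines, survival genes and also their own inhibitors, so that the response is self-limiting. AML blasts are known for raised NF-kB activity.

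Total counts per library ran from 58397190 to 79172389, at which 3 counts correspond to between 0.0366 and 0.0548 CPM (counts scaled to library size by edgeR's TMM factors). Counting error is all that this floor covers. Whether replicates were grown as separate cultures is not stated in the labels, and the p-values then measure no more than how these samples vary, which may be technical variation. The library labelled FLT3-ITD control 2 stood apart from its group. FLT3 was at 171 and 169 CPM in treated FLT3-ITD cells, against 178 and 203 CPM in FLT3-ITD controls 1 and 3 and 53.4 CPM in the library labelled control 2, and at 39.2 to 43.3 CPM in the OCI-AML3 libraries. The log CPM of that library correlated at 0.988 to 0.991 with those of the OCI-AML3 controls and at 0.974 to 0.976 with those of FLT3-ITD controls 1 and 3, across genes, which are not independent replicates. The 13 mitochondrially encoded protein genes had 7.01% of that library's counts, and 3.64% to 6.09% of those of each other library. The library stayed in the group of its label, and counts and the values of most members are also given from the fit of the other 10 libraries, called the 10-library fit. SPI1, which encodes the myeloid factor PU.1, was at 23.1 and 24.1 CPM in treated FLT3-ITD cells, against 316 and 271 CPM in FLT3-ITD controls 1 and 3 and 284 CPM in the library labelled control 2. The 12 myeloid markers were MPO, CD33, SPI1, CEBPA, CEBPE, ITGAM, CD14, LYZ, ELANE, AZU1, PRTN3 and CSF3R, and 12 of 12 passed the filter. They summed to 719 to 795 CPM in treated FLT3-ITD cells, against 2620 to 3170 CPM in FLT3-ITD controls. In OCI-AML3 they summed to 1410 to 1430 CPM in treated cells, against 4320 to 4920 CPM in controls. The most abundant markers weigh most in such a sum. CEBPE was at 0 in both treated groups. Of 9 lymphoid markers 2 passed the filter, of 8 erythroid and megakaryocyte markers 1, and of 9 stromal, endothelial and epithelial markers 1, and none of these lists summed to more than 1.67 CPM in any library. CD2, CD3E, HBB, PF4, GP9, CDH1, CDH5 and KRT19 were at 0 in every library. The part that the lower myeloid markers have in the results below was not tested, and in bulk RNA fewer cells of a type and less RNA per cell cannot be told apart.

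Members of this gene set moved in both directions with FHD-286 in both lines, and the controls of the lines differed. Of the 36 members 35 had enough counts to be tested. CCL4, a chemokine that attracts monocytes and T cells, was the exception: it had 4 and 11 counts in FLT3-ITD controls 1 and 3 and 0 in the other 9 libraries. With FHD-286, 12 members were higher and 5 lower in treated FLT3-ITD cells than in their controls by edgeR's quasi-likelihood test, at a Benjamini-Hochberg adjusted p under 0.05 over 18908 genes. That is 34.3% and 14.3% of those tested, while 15.6% of all genes were called higher and 14.9% lower. In treated OCI-AML3 cells 9 members were higher and 8 lower than in OCI-AML3 controls, 25.7% and 22.9% of the members against 19.8% and 21.5% of all genes. The median log2 fold change of the members was 0.33 in FLT3-ITD and -0.02 in OCI-AML3, beside -0.02 in FLT3-ITD and 0.015 in OCI-AML3 over all genes. In the 10-library fit 17 members were higher and 13 lower in FLT3-ITD, where 24.8% and 24.2% of all genes were called, and 13 were higher and 11 lower in OCI-AML3, where 29.0% and 29.8% were called. The median of the members in FLT3-ITD was 0.08 in that fit.

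The heat map of levels shows which members moved in both lines. BCL3, TRAF1, BIRC2, CFLAR, IER3, PLAUR and CCL3 were higher with FHD-286 in both, 7 genes that made up 58.3% of the members higher in FLT3-ITD and 77.8% of those higher in OCI-AML3. Over all genes the share of rises common to both lines was 72.0% of those in FLT3-ITD and 56.9% of those in OCI-AML3. IKBKE, TNFAIP8 and ICAM1 were lower in both, 60% and 37.5% of the members called lower, beside 74.0% and 51.1% over all genes. The comparison of the treated and control cells of each line uses its own controls, but both rest on 1 shared estimate of the spread. A value that did not pass in OCI-AML3 can therefore reflect the spread of the FLT3-ITD libraries.

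**Figure D1:**
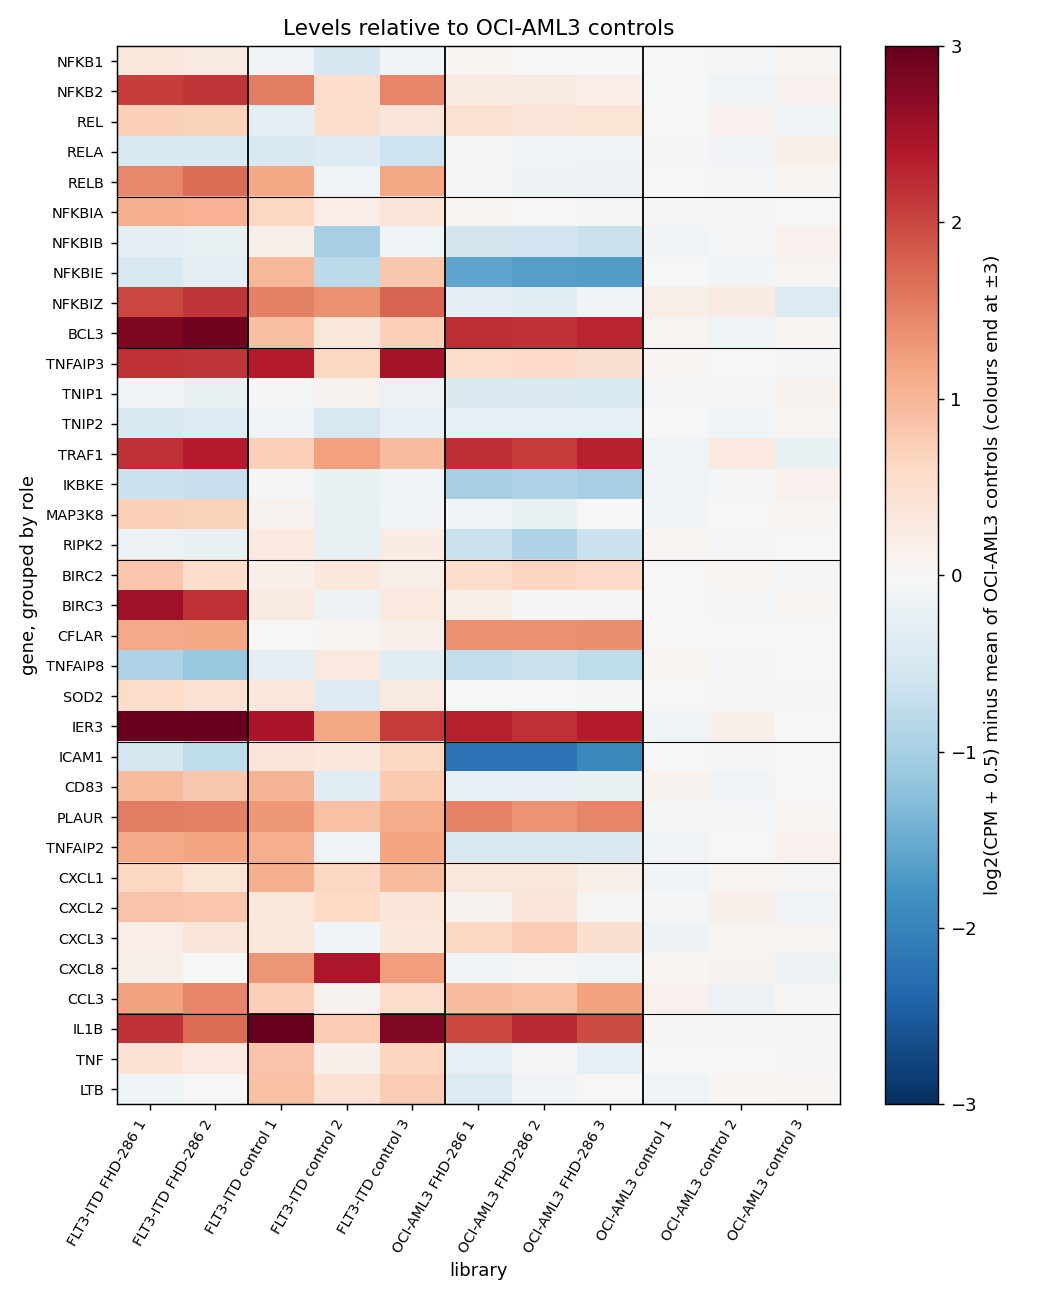
Level of 35 members in every library, as log2(CPM + 0.5) minus the mean of the OCI-AML3 controls, with libraries in columns and colours ending at -3 and 3. BCL3, IER3 and TRAF1 are darker towards higher values in the treated libraries of both lines, and the library labelled FLT3-ITD control 2 is paler than FLT3-ITD controls 1 and 3 for TNFAIP3, IL1B and NFKB2.

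Among controls, most of the members that differed were higher in the FLT3-ITD line. In FLT3-ITD controls 18 members were higher and 2 lower than in OCI-AML3 controls, 51.4% and 5.7% of those tested, beside 14.5% and 13.5% of all genes. The median of the members was 0.60, against 0.013 over all genes. In the 10-library fit 22 were higher and 3 lower, beside 24.1% and 25.4% of all genes. CXCL2 was the call lost in that fit (log2 fold change 0.68, SE 0.21, adjusted p = 0.0387; 0.54 and 0.0554 in the 10-library fit). RELB, TNIP2, ICAM1, TNFAIP2 and CCL3 each lost the call in 9 of the 11 fits that left out 1 library, CXCL2 in 7, and TNF and LTB without OCI-AML3 control 1. With library totals in place of TMM factors the median of all genes was 0.087 in the FLT3-ITD treatment comparison, 0.169 in that of OCI-AML3 and 0.107 between the controls, and 64.1%, 63.0% and 67.7% of all calls were higher, against 51.3%, 47.9% and 51.8% with TMM. The members were then 15 higher and 5 lower in FLT3-ITD, 11 and 6 in OCI-AML3, and 19 and 1 between the controls, and no called member changed direction. The treatment comparison of each line shares its controls with this comparison of the lines, so the values of each are given side by side below and are not independent of one another.

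Windows of 250 bases before to 50 after RefSeq gene starts (GRCh38.p14) were searched on both strands for the kB consensus, the 10-letter site that NF-kB dimers bind, and for the AP-1 motif TGANTCA, to which the Fos and Jun factors bind. Of the 36 members 31 had a window, 55 windows in all; RELB, NFKBIE, RIPK2, IER3 and CCL4 were not matched. The letters of the kB consensus were GGGRNNYYCC, with R a purine, Y a pyrimidine and N any base. It was in at least 1 window of 17 of the 31 members and in 40.0% of the 55 windows. Of 35116 windows of the same length 11.3% held it. The members were chosen by name as NF-kB subunits, inhibitors and targets, so their share is not that of a blind choice. Windows of the same gene can overlap and repeat a match, as for LTB, with matches at -86 and 39 in 1 window and -87 and 38 in another. The AP-1 motif was in 5 windows of the members, 9.1%, and in 7.71% of all windows. Matches could overlap each other, within and between the motifs. The windows of TRAF1, ICAM1, PLAUR, CXCL8, IL1B and TNF held no match to the kB consensus. A match is a description of these letters and not a site. Shown here are the 250 bases before the start of BIRC3, the member with the largest response in 1 line, of NFKBIA, whose response differed between the lines, and of TNFAIP3, which differed between the controls of the lines. Capitals mark the letters that match the kB consensus.
BIRC3, chr11:102317234-102317483, plus strand, 2 matches: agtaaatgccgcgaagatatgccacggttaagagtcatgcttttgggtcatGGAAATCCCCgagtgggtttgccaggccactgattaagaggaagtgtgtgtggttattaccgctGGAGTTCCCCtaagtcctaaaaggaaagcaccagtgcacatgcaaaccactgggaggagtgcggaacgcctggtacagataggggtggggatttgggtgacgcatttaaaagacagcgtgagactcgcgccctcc
NFKBIA, chr14:35404750-35404999, minus strand, 1 match: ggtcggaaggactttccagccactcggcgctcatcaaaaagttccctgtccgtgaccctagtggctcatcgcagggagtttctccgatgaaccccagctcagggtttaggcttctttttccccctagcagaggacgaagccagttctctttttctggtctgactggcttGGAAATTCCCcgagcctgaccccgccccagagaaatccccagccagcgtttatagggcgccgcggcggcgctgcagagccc
TNFAIP3, chr6:137867009-137867258, plus strand, 2 matches: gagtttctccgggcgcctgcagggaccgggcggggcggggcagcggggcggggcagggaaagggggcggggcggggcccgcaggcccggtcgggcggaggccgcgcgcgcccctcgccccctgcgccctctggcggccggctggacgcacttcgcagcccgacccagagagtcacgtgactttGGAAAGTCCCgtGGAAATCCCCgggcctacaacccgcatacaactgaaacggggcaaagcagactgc

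Of the subunits, NFKB1 and NFKB2 rose in FLT3-ITD with FHD-286 and none of the 5 passed the test in OCI-AML3. Of all genes 15.6% were called higher and 14.9% lower in FLT3-ITD, and 19.8% and 21.5% in OCI-AML3. In the 10-library fit 4 subunits rose in FLT3-ITD and 2 in OCI-AML3, beside 24.8% and 29.0% of all genes called higher. NFKB2 encodes p100, the precursor of the p52 subunit of the alternative pathway (ENSG00000077150.18, GRCh38 chromosome 10, 102394110 to 102402529). It was at 127 and 134 CPM in treated FLT3-ITD cells, against 87.6 and 82.8 CPM in FLT3-ITD controls 1 and 3 and 43.0 CPM in the library labelled control 2. NFKB2 was at 35.7, 36.1 and 34.6 CPM in treated OCI-AML3 cells, against 29.9, 27.2 and 32.7 CPM in OCI-AML3 controls. NFKB2 had its highest levels in the treated FLT3-ITD libraries, its lowest in OCI-AML3, and no overlap between treated and control libraries in either line. The rise in FLT3-ITD passed the test (log2 fold change 0.88, SE 0.23, adjusted p = 0.0147; 0.62 and 1.34e-06 in the 10-library fit) but not when either treated FLT3-ITD library was left out, and the value in OCI-AML3 did not pass with all libraries and did in the 10-library fit (log2 fold change 0.24, SE 0.21, adjusted p = 0.382; 0.24 and 0.00333 in the 10-library fit). Between the controls of the lines the log2 difference was 1.25 (SE 0.21, adjusted p = 0.00265).

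NFKB1 encodes p105, the precursor of the p50 subunit of the canonical pathway. Its levels were 109 and 107 CPM in treated FLT3-ITD cells, against 81.8 and 83.8 CPM in FLT3-ITD controls 1 and 3 and 61.8 CPM in the library labelled control 2, and 84.0 to 92.2 CPM in all 6 OCI-AML3 libraries, treated or control. The treated FLT3-ITD libraries were the 2 highest of the 11. NFKB1 rose in FLT3-ITD (log2 fold change 0.51, SE 0.11, adjusted p = 0.0066; 0.38 and 8.12e-05 in the 10-library fit), a call lost without treated FLT3-ITD replicate 1, while in OCI-AML3 its log2 fold change was 0.01 (SE 0.10, adjusted p = 0.921). RELB, the partner of p52, was at 50.3 and 58.5 CPM in treated FLT3-ITD cells, against 40.8 and 40.9 CPM in FLT3-ITD controls 1 and 3 and 16.7 CPM in the library labelled control 2, and at 15.8 to 18.9 CPM in the OCI-AML3 libraries. The library labelled control 2 lay within the OCI-AML3 range for RELB, and the treated FLT3-ITD libraries were above all others. RELB did not pass the test in FLT3-ITD with all libraries and did in the 10-library fit (log2 fold change 0.73, SE 0.29, adjusted p = 0.0803; 0.41 and 0.000282 in the 10-library fit), and was higher in FLT3-ITD than in OCI-AML3 controls (log2 difference 0.86, SE 0.27, adjusted p = 0.0352).

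RELA, the p65 subunit that carries most of the activating function, did not pass the test with FHD-286 in either line. It was at 93.7 and 94.8 CPM in treated FLT3-ITD cells, against 94.2 and 84.2 CPM in FLT3-ITD controls 1 and 3 and 99.5 CPM in the library labelled control 2. RELA was at 125, 119.8 and 120.4 CPM in treated OCI-AML3 cells, against 124, 123 and 144 CPM in OCI-AML3 controls. RELA was the 1 subunit called lower in FLT3-ITD than in OCI-AML3 controls (log2 fold change -0.49, SE 0.08, adjusted p = 0.00241; -0.55 and 2.97e-06 in the 10-library fit). REL, the subunit first found as an avian retroviral oncogene, was at 20.4 and 20.0 CPM in treated FLT3-ITD cells, against 10.1 and 15.8 CPM in FLT3-ITD controls 1 and 3 and 17.9 CPM in the library labelled control 2. REL did not pass the test with FHD-286 in either line with all libraries and did in the 10-library fit, with 0.64 in FLT3-ITD (adjusted p = 0.000526) and 0.43 in OCI-AML3 (adjusted p = 0.00255), and 43.3% of its exon length overlaps another gene, so part of its counts is uncertain.

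Of the 5 genes of the IkB family, 2 rose and 0 fell in FLT3-ITD, and 1 rose and 2 fell in OCI-AML3. The shares of all genes called higher and lower were 15.6% and 14.9% in FLT3-ITD and 19.8% and 21.5% in OCI-AML3. The 10-library fit gave 3 and 2 in FLT3-ITD, beside 24.8% and 24.2% of all genes. In OCI-AML3 that fit gave 1 and 2, beside 29.0% and 29.8%. BCL3 had the largest change of the family in both lines. BCL3 is an atypical nuclear IkB protein that binds p50 and p52 dimers and can turn them into activators (ENSG00000069399.13, chromosome 19, 44747705 to 44760044). It was at 65.2 and 69.1 CPM in treated FLT3-ITD cells, against 17.0 and 14.9 CPM in FLT3-ITD controls 1 and 3 and 11.3 CPM in the library labelled control 2. BCL3 was at 43.1, 41.6 and 45.0 CPM in treated OCI-AML3 cells, against 9.36, 8.03 and 9.25 CPM in OCI-AML3 controls. Every treated library lay above every control library, and the 11 libraries lay in the order treated FLT3-ITD, treated OCI-AML3, FLT3-ITD control and OCI-AML3 control. BCL3 rose in FLT3-ITD (log2 fold change 2.22, SE 0.14, adjusted p = 3.19e-06; 2.07 and 1.05e-13 in the 10-library fit) and in OCI-AML3 (log2 fold change 2.28, SE 0.14, adjusted p = 8.94e-07; 2.29 and 1.16e-15 in the 10-library fit). The difference between these effects was -0.07 (SE 0.20, adjusted p = 0.893), which did not pass the test.

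NFKBIA encodes IkB-alpha, the main inhibitor of the canonical dimers and itself a target of NF-kB (ENSG00000100906.10, chromosome 14, 35401511 to 35404749, minus strand). It was at 102 and 101 CPM in treated FLT3-ITD cells, against 74.6 and 62.5 CPM in FLT3-ITD controls 1 and 3 and 56.0 CPM in the library labelled control 2. NFKBIA was at 51.0, 47.7 and 47.4 CPM in treated OCI-AML3 cells, against 49.7, 47.4 and 48.1 CPM in OCI-AML3 controls. The treated FLT3-ITD libraries stood above all the others, while the treated and control OCI-AML3 libraries overlapped. NFKBIA rose in FLT3-ITD (log2 fold change 0.66, SE 0.10, adjusted p = 0.00091; 0.57 and 4.52e-06 in the 10-library fit) and had a log2 fold change of 0.01 (SE 0.09, adjusted p = 0.956) in OCI-AML3. The difference between the effects, FLT3-ITD minus OCI-AML3, was 0.65 (SE 0.14, adjusted p = 0.0341), with 0.56 (adjusted p = 0.000543) in the 10-library fit, and missed the threshold in 9 of the 11 fits that left out 1 library. NFKBIA was also higher in FLT3-ITD than in OCI-AML3 controls (log2 difference 0.41, SE 0.09, adjusted p = 0.0103).

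NFKBIE, which encodes IkB-epsilon, fell in OCI-AML3 and in the 10-library fit of FLT3-ITD. It was at 27.9 and 31.3 CPM in treated FLT3-ITD cells, against 76.9 and 68.0 CPM in FLT3-ITD controls 1 and 3 and 21.9 CPM in the library labelled control 2. NFKBIE was at 12.4, 11.8 and 11.6 CPM in treated OCI-AML3 cells, against 38.3, 36.4 and 40.3 CPM in OCI-AML3 controls. The treated OCI-AML3 libraries were the lowest of all, and in FLT3-ITD the library labelled control 2 was below the treated libraries while controls 1 and 3 were above them. NFKBIE fell in OCI-AML3 (log2 fold change -1.68, SE 0.35, adjusted p = 0.00281; -1.68 and 5.23e-14 in the 10-library fit); in FLT3-ITD all 11 libraries gave -0.91 (SE 0.39, adjusted p = 0.0987) and the 10-library fit -1.29 (adjusted p = 7.32e-11). NFKBIB, IkB-beta, ranged from 24.3 to 26.4 CPM in treated OCI-AML3 cells, against 36.9 to 42.7 CPM in OCI-AML3 controls, and fell there (log2 fold change -0.61, SE 0.22, adjusted p = 0.0496; -0.60 and 7.19e-07 in the 10-library fit), a call lost in 9 of the 11 fits that left out 1 library. In FLT3-ITD NFKBIB had -0.003 (SE 0.25, adjusted p = 0.995) with all libraries and was called lower in the 10-library fit, at -0.27 (adjusted p = 0.0193). NFKBIZ, a nuclear IkB protein that is needed for a set of secondary inflammatory genes, was higher in FLT3-ITD than in OCI-AML3 controls (log2 fold change 1.59, SE 0.18, adjusted p = 0.000406; 1.68 and 1.09e-09 in the 10-library fit) and did not pass the test with FHD-286 in either line with all libraries, at 0.53 (SE 0.19, adjusted p = 0.057) in FLT3-ITD and -0.28 (SE 0.17, adjusted p = 0.235) in OCI-AML3. NFKBIZ was called higher in FLT3-ITD in the 10-library fit, at 0.44 (adjusted p = 0.011), and had -0.28 (adjusted p = 0.0716) in OCI-AML3.

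Of the 7 signalling regulators, 2 rose and 1 fell in FLT3-ITD, and 1 rose and 4 fell in OCI-AML3. Among all genes 15.6% were called higher and 14.9% lower in FLT3-ITD, and 19.8% and 21.5% in OCI-AML3. The 10-library fit gave 2 and 4 in each line, beside 24.8% and 24.2% of all genes in FLT3-ITD and 29.0% and 29.8% in OCI-AML3. TRAF1 rose and IKBKE fell in both lines, and MAP3K8 rose in FLT3-ITD. TRAF1, an adaptor of tumour necrosis factor receptors that is itself induced by NF-kB, was at 5.99 and 6.71 CPM in treated FLT3-ITD cells, against 1.83 and 2.20 CPM in FLT3-ITD controls 1 and 3 and 2.84 CPM in the library labelled control 2. TRAF1 was at 6.12, 5.60 and 6.48 CPM in treated OCI-AML3 cells, against 0.822, 1.25 and 0.736 CPM in OCI-AML3 controls. The treated libraries of both lines reached about the same level, between 5.60 and 6.71 CPM, above control libraries that differed between the lines. TRAF1 rose in FLT3-ITD (log2 fold change 1.47, SE 0.23, adjusted p = 0.000945; 1.65 and 4.43e-08 in the 10-library fit) and in OCI-AML3 (log2 fold change 2.69, SE 0.23, adjusted p = 9.25e-06; 2.68 and 5.36e-12 in the 10-library fit), and was higher in FLT3-ITD than in OCI-AML3 controls (log2 difference 1.28, SE 0.23, adjusted p = 0.00316). The difference between the effects was -1.22 (SE 0.33, adjusted p = 0.0743) with all libraries and -1.02 (adjusted p = 0.00341) in the 10-library fit.

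IKBKE encodes IKK-epsilon, a kinase of the interferon and NF-kB responses. It was at 58.5 and 56.9 CPM in treated FLT3-ITD cells, against 88.9 and 87.3 CPM in FLT3-ITD controls 1 and 3 and 80.9 CPM in the library labelled control 2. IKBKE was at 45.7, 48.4 and 46.0 CPM in treated OCI-AML3 cells, against 87.1, 88.8 and 102 CPM in OCI-AML3 controls. All treated libraries were below all control libraries, and the controls of the lines overlapped. IKBKE fell in FLT3-ITD (log2 fold change -0.57, SE 0.08, adjusted p = 0.000569; -0.61 and 1.24e-06 in the 10-library fit) and in OCI-AML3 (log2 fold change -0.99, SE 0.07, adjusted p = 3.94e-06; -0.99 and 2.92e-11 in the 10-library fit). MAP3K8, the kinase also called TPL2 that links NF-kB p105 to the ERK pathway, was at 4.16 and 4.12 CPM in treated FLT3-ITD cells, against 2.56 and 2.19 CPM in FLT3-ITD controls 1 and 3 and 1.95 CPM in the library labelled control 2. In the OCI-AML3 libraries MAP3K8 ranged from 2.00 to 2.37 CPM with FHD-286, against 2.19 to 2.51 CPM in controls. It rose in FLT3-ITD (log2 fold change 0.89, SE 0.16, adjusted p = 0.00233; 0.81 and 0.000119 in the 10-library fit), had a log2 fold change of -0.11 (SE 0.15, adjusted p = 0.606) in OCI-AML3, and the difference between the effects was 0.998 (SE 0.22, adjusted p = 0.039), with 0.91 (adjusted p = 0.0024) in the 10-library fit, and it passed in 2 of the 11 fits that left out 1 library. The FLT3-ITD call of MAP3K8 was lost when edgeR was fitted to the FLT3-ITD libraries alone (adjusted p = 0.0717).

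TNFAIP3 encodes A20, a ubiquitin-editing enzyme that shuts the pathway down. It was at 87.9 and 85.0 CPM in treated FLT3-ITD cells, against 101 and 109 CPM in FLT3-ITD controls 1 and 3 and 29.3 CPM in the library labelled control 2. TNFAIP3 was at 28.0, 28.2 and 26.4 CPM in treated OCI-AML3 cells, against 19.5, 19.0 and 18.0 CPM in OCI-AML3 controls. TNFAIP3 in the library labelled control 2 was between the other FLT3-ITD controls and the OCI-AML3 libraries, and its direction in FLT3-ITD depended on that library. With all libraries the FLT3-ITD log2 fold change was 0.12 (SE 0.39, adjusted p = 0.853), and in the 10-library fit it was -0.28 (adjusted p = 0.00281). In OCI-AML3 it was 0.55 (SE 0.36, adjusted p = 0.247) with all libraries and 0.55 (SE 0.063, adjusted p = 1.86e-07) in the 10-library fit. The OCI-AML3 libraries are the same in both fits, and the SE takes in the spread of the FLT3-ITD controls. The difference between the lines' controls was 2.08 (SE 0.37, adjusted p = 0.00319), with 2.48 (adjusted p = 3.36e-17) in the 10-library fit. RIPK2, the kinase of the NOD receptors, and TNIP1 and TNIP2, partners of A20, fell in OCI-AML3, with -0.76 (SE 0.14, adjusted p = 0.00129) for RIPK2, -0.45 (SE 0.08, adjusted p = 0.000993) for TNIP1 and -0.25 (SE 0.09, adjusted p = 0.045) for TNIP2, whose call was lost in 9 of the 11 fits that left out 1 library. None of the 3 passed the test in FLT3-ITD with all libraries, where their log2 fold changes were -0.33, -0.10 and -0.15 (adjusted p = 0.136, 0.421 and 0.304). In the 10-library fit RIPK2 and TNIP2 were called lower in FLT3-ITD as well, at -0.47 (adjusted p = 0.000223) for RIPK2 and -0.24 (adjusted p = 0.0108) for TNIP2, while TNIP1 had -0.03 (adjusted p = 0.766).

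**Figure D2:**
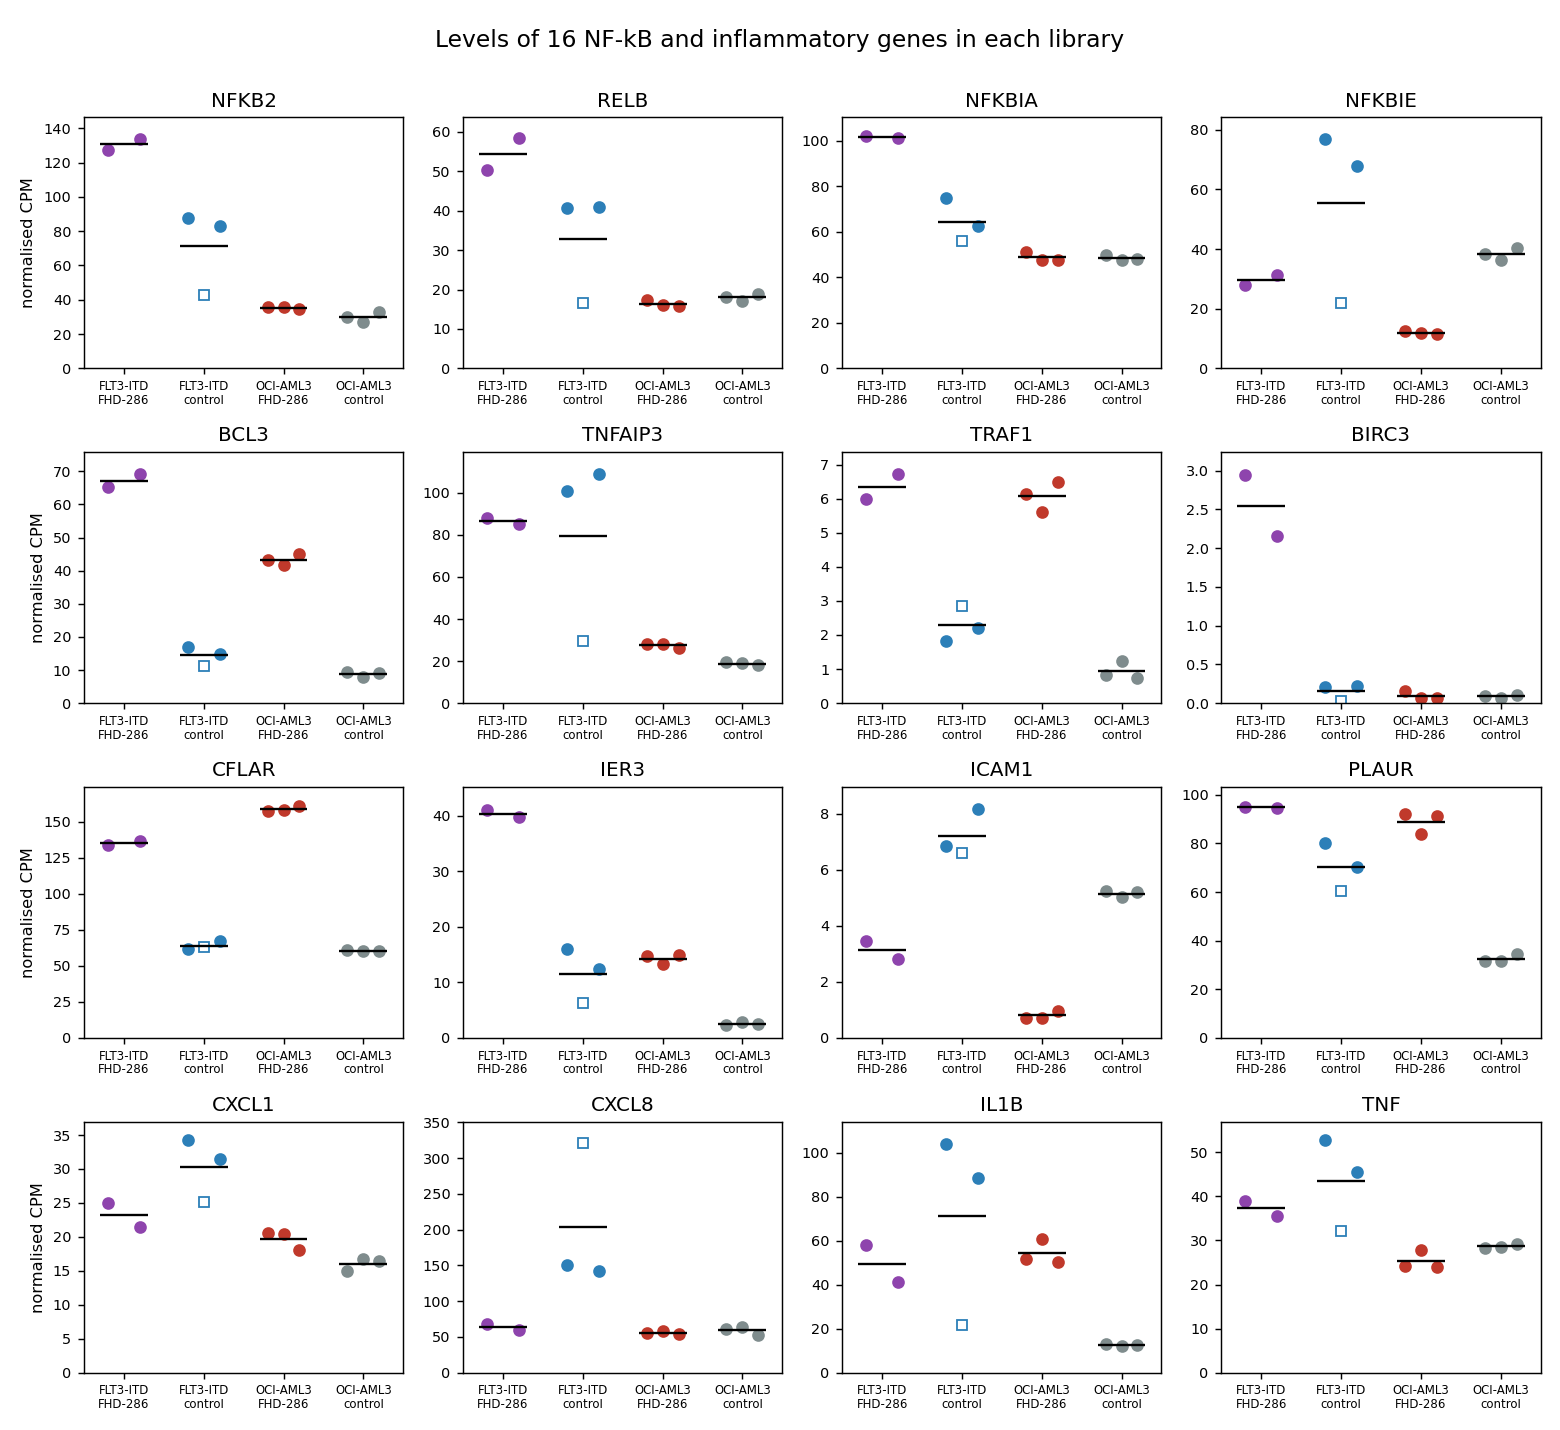
Normalised CPM in each library for members that the text describes library by library, with the treated cells left of the controls in each line, black lines for group means and an open square for the library labelled FLT3-ITD control 2. BIRC3 stands above 2 CPM only in the treated FLT3-ITD libraries, while ICAM1 is lowest in the treated OCI-AML3 libraries.

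Of the 6 survival genes, 4 rose and 1 fell in FLT3-ITD, and 3 rose and 1 fell in OCI-AML3, beside 15.6% of all genes called higher and 14.9% lower in FLT3-ITD and 19.8% and 21.5% in OCI-AML3. The 10-library fit gave 5 and 1 in FLT3-ITD, beside 24.8% and 24.2% of all genes. In OCI-AML3 it gave 3 and 1, beside 29.0% and 29.8%. BIRC3 encodes cIAP2, a ubiquitin ligase that blocks cell death downstream of the tumour necrosis factor receptor (ENSG00000023445.13, chromosome 11, 102317450 to 102339403). It had 214 and 177 counts in treated FLT3-ITD cells, against 15 and 18 counts in FLT3-ITD controls 1 and 3 and 2 counts in the library labelled control 2. In CPM this was 2.94 and 2.16 CPM in treated FLT3-ITD cells, against 0.212 and 0.225 CPM in FLT3-ITD controls 1 and 3 and 0.0289 CPM in the library labelled control 2. OCI-AML3 libraries had between 4 and 12 counts, with or without FHD-286. BIRC3 was at no more than 0.225 CPM in every library except the treated FLT3-ITD ones. It rose there (log2 fold change 4.004, SE 0.54, adjusted p = 0.000334; 3.53 and 1.51e-08 in the 10-library fit), the largest log2 fold change of a member in any of the 4 comparisons, and had a log2 fold change of 0.15 (SE 0.67, adjusted p = 0.877) in OCI-AML3. The difference between the effects was 3.85 (SE 0.89, adjusted p = 0.0442), with 3.37 (adjusted p = 0.000901) in the 10-library fit, and it passed in 3 of the 11 fits that left out 1 library.

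BIRC2, which encodes the related cIAP1 and lies next to BIRC3 on chromosome 11, rose by 0.48 in FLT3-ITD (SE 0.10, adjusted p = 0.00411) and by 0.60 in OCI-AML3 (SE 0.09, adjusted p = 0.000354) on the log2 scale, the first of these calls lost without treated FLT3-ITD replicate 1. Its values in the 10-library fit were 0.53 (adjusted p = 3.26e-05) in FLT3-ITD and 0.60 (adjusted p = 3.59e-07) in OCI-AML3. CFLAR encodes c-FLIP, which keeps caspase-8 inactive. It was at 134 and 137 CPM in treated FLT3-ITD cells, against 61.7 and 67.1 CPM in FLT3-ITD controls 1 and 3 and 63.0 CPM in the library labelled control 2. CFLAR was at 158, 158 and 161 CPM in treated OCI-AML3 cells, against 61.1, 60.3 and 60.6 CPM in OCI-AML3 controls. All CFLAR control libraries lay between 60.3 and 67.1 CPM, and all treated ones at 134 CPM or above. CFLAR rose in FLT3-ITD (log2 fold change 1.08, SE 0.06, adjusted p = 1.47e-06; 1.07 and 4.96e-11 in the 10-library fit) and in OCI-AML3 (log2 fold change 1.39, SE 0.06, adjusted p = 9.93e-08; 1.39 and 1.8e-14 in the 10-library fit), and 12% of its exon length overlaps another gene.

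IER3, an early response gene that shields cells from death by tumour necrosis factor, was at 41.1 and 39.7 CPM in treated FLT3-ITD cells, against 16.01 and 12.5 CPM in FLT3-ITD controls 1 and 3 and 6.21 CPM in the library labelled control 2. IER3 was at 14.7, 13.3 and 14.9 CPM in treated OCI-AML3 cells, against 2.25, 2.84 and 2.48 CPM in OCI-AML3 controls. The treated OCI-AML3 libraries lay between FLT3-ITD controls 1 and 3, and the treated FLT3-ITD libraries were above all others. IER3 rose in FLT3-ITD (log2 fold change 1.80, SE 0.29, adjusted p = 0.000951; 1.51 and 2.95e-10 in the 10-library fit) and in OCI-AML3 (log2 fold change 2.50, SE 0.28, adjusted p = 5.61e-05; 2.50 and 5.46e-14 in the 10-library fit) and was higher in FLT3-ITD than in OCI-AML3 controls (log2 fold change 2.19, SE 0.28, adjusted p = 0.000746; 2.49 and 1.78e-13 in the 10-library fit); 26.5% of its exon length overlaps another gene. TNFAIP8, a phospholipid carrier that opposes apoptosis, was the survival gene that fell, with -0.97 (SE 0.17, adjusted p = 0.00161) in FLT3-ITD and -0.72 (SE 0.15, adjusted p = 0.00265) in OCI-AML3, and -0.75 (adjusted p = 1.81e-07) in FLT3-ITD and -0.72 (adjusted p = 7.47e-09) in OCI-AML3 in the 10-library fit. The FLT3-ITD call of TNFAIP8 was lost when edgeR was fitted to the FLT3-ITD libraries alone (adjusted p = 0.056). SOD2, the manganese superoxide dismutase of mitochondria, was at 136 and 128 CPM in treated FLT3-ITD cells, against 118 and 113 CPM in FLT3-ITD controls 1 and 3 and 71.6 CPM in the library labelled control 2, and at 89.6 to 95.5 CPM in the OCI-AML3 libraries. SOD2 did not pass the test in FLT3-ITD with all libraries and did in the 10-library fit (log2 fold change 0.39, SE 0.17, adjusted p = 0.101; 0.19 and 0.0217 in the 10-library fit).

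Among the surface proteins, ICAM1 fell and PLAUR rose in both lines, each with a larger size in OCI-AML3. ICAM1, the adhesion molecule that binds leukocyte integrins (ENSG00000090339.8, chromosome 19, 10270835 to 10286615), was at 3.46 and 2.81 CPM in treated FLT3-ITD cells, against 6.86 and 8.15 CPM in FLT3-ITD controls 1 and 3 and 6.58 CPM in the library labelled control 2. ICAM1 was at 0.724, 0.727 and 0.972 CPM in treated OCI-AML3 cells, against 5.23, 5.03 and 5.19 CPM in OCI-AML3 controls. The treated libraries were below the controls in both lines, and lowest in OCI-AML3. ICAM1 fell in FLT3-ITD (log2 fold change -1.20, SE 0.18, adjusted p = 0.000686; -1.26 and 2.71e-07 in the 10-library fit) and in OCI-AML3 (log2 fold change -2.67, SE 0.17, adjusted p = 1.32e-06; -2.67 and 1.51e-12 in the 10-library fit), and the difference between the effects was 1.47 (SE 0.24, adjusted p = 0.0105), with 1.40 (adjusted p = 4.83e-05) in the 10-library fit. Its exons overlap another gene over 23.6% of their length.

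PLAUR, the urokinase receptor that anchors plasmin formation at the cell surface (ENSG00000011422.11, chromosome 19, 43646095 to 43670547, minus strand), was at 95.1 and 94.4 CPM in treated FLT3-ITD cells, against 80.3 and 70.4 CPM in FLT3-ITD controls 1 and 3 and 60.3 CPM in the library labelled control 2. PLAUR was at 92.0, 83.8 and 91.2 CPM in treated OCI-AML3 cells, against 31.7, 31.7 and 34.3 CPM in OCI-AML3 controls. The treated libraries of both lines lay between 83.8 and 95.1 CPM, while the OCI-AML3 controls were lower than any FLT3-ITD control. PLAUR rose in FLT3-ITD (log2 fold change 0.43, SE 0.11, adjusted p = 0.0115; 0.33 and 0.00123 in the 10-library fit), a call lost when either treated FLT3-ITD library was left out, and in OCI-AML3 (log2 fold change 1.45, SE 0.10, adjusted p = 1.95e-06; 1.45 and 1.09e-13 in the 10-library fit), and the difference between the effects was -1.02 (SE 0.14, adjusted p = 0.00609), with -1.12 (adjusted p = 1.4e-07) in the 10-library fit. Between the controls it was 1.11 (SE 0.10, adjusted p = 0.000164) on the log2 scale. CD83, a marker of activated antigen-presenting cells, and TNFAIP2, a tumour necrosis factor-induced protein of cell protrusions, did not pass the test with FHD-286 in either line with all libraries. CD83 had a log2 fold change of 0.29 (SE 0.29, adjusted p = 0.49) in FLT3-ITD and -0.26 (SE 0.26, adjusted p = 0.47) in OCI-AML3. TNFAIP2 had a log2 fold change of 0.33 (SE 0.28, adjusted p = 0.406) in FLT3-ITD and -0.49 (SE 0.25, adjusted p = 0.153) in OCI-AML3. In the 10-library fit both were called lower in OCI-AML3, CD83 at -0.25 (adjusted p = 0.00631) and TNFAIP2 at -0.49 (adjusted p = 1.42e-06), and neither passed in FLT3-ITD, where CD83 had -0.02 (adjusted p = 0.844) and TNFAIP2 had 0.02 (adjusted p = 0.832).

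**Figure D3:**
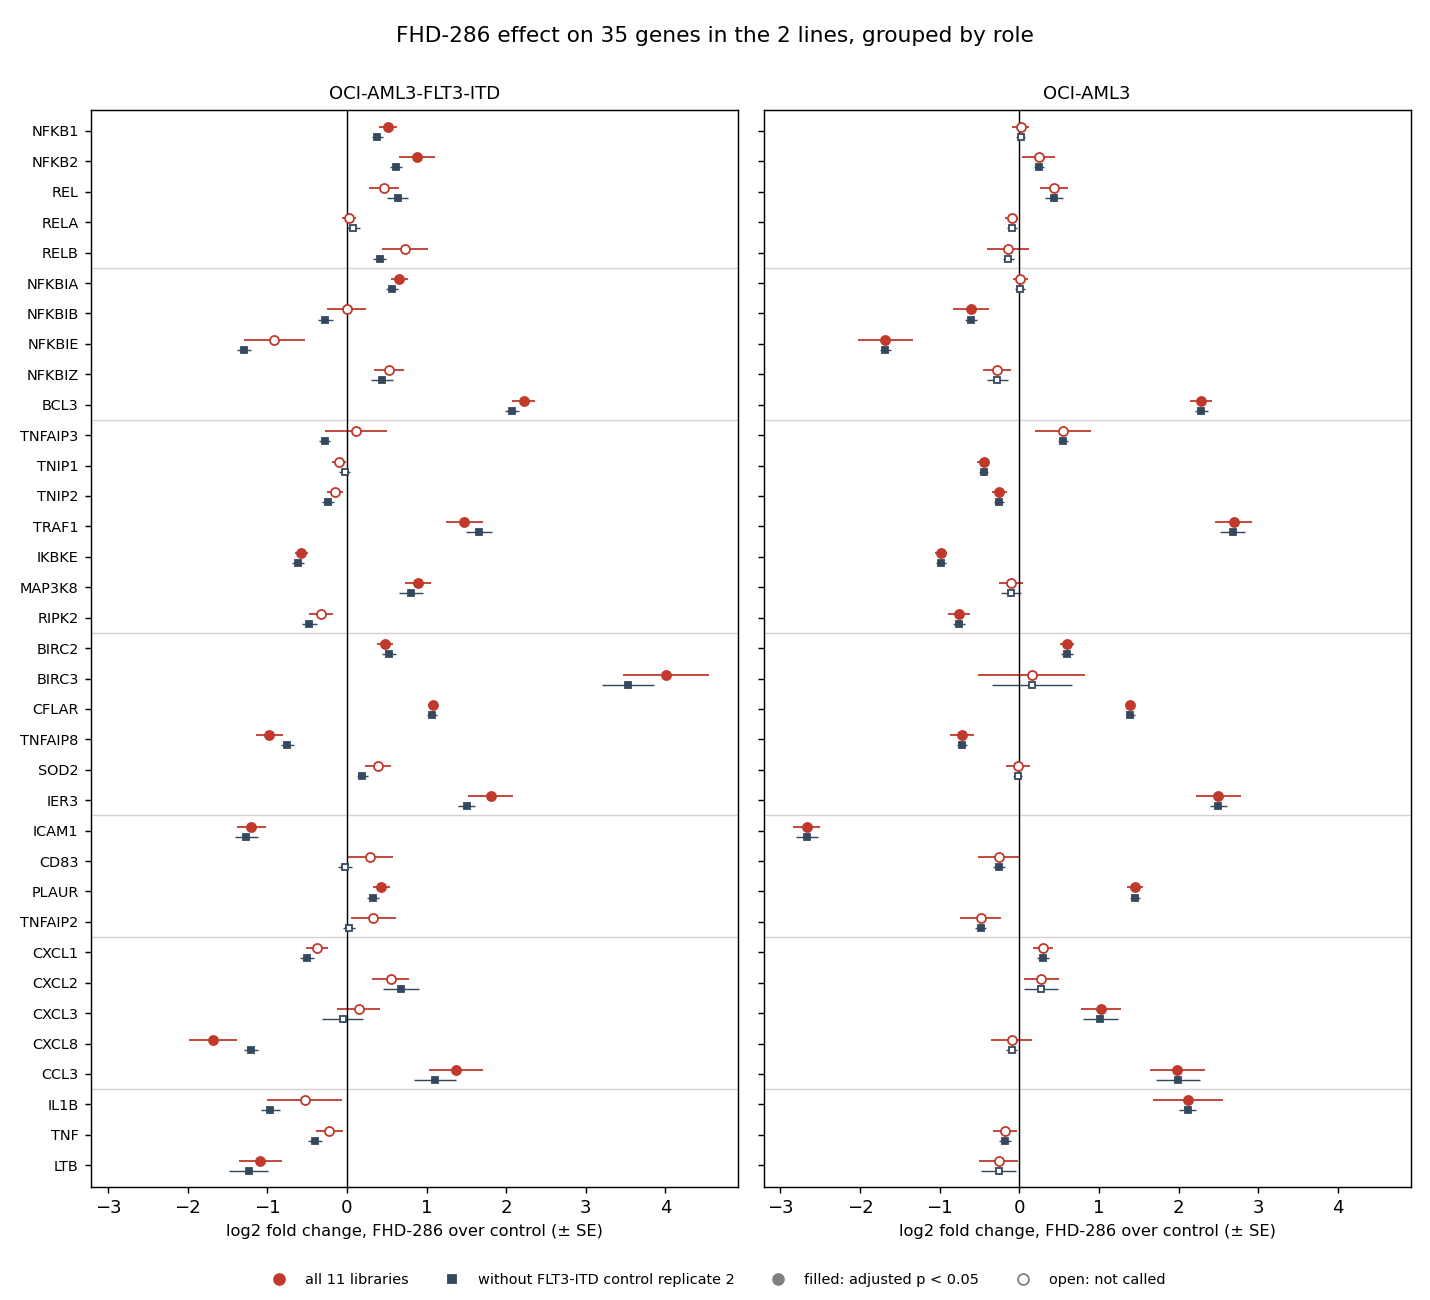
Log2 fold change of 35 members with FHD-286, FLT3-ITD left and OCI-AML3 right, with bars of 1 SE, circles for all 11 libraries, squares for the 10-library fit, and filled symbols at an adjusted p under 0.05. BIRC3 reaches 4.004 in FLT3-ITD and 0.15 in OCI-AML3, and IL1B lies on opposite sides of 0, at -0.53 and 2.11.

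Of the 5 chemokines tested, 1 rose and 1 fell in FLT3-ITD, and 2 rose and 0 fell in OCI-AML3, while 15.6% and 14.9% of all genes in FLT3-ITD and 19.8% and 21.5% in OCI-AML3 were called higher and lower. The 10-library fit gave 2 and 2 in FLT3-ITD, beside 24.8% and 24.2% of all genes. In OCI-AML3 it gave 3 and 0, beside 29.0% and 29.8%. CXCL8, which encodes interleukin-8, the attractant of neutrophils (ENSG00000169429.10, chromosome 4, 73740506 to 73743716), had the highest level per kilobase of exon of the members in both control groups, 89.8 CPM per kb in FLT3-ITD and 26.2 CPM per kb in OCI-AML3. It was at 67.5 and 59.7 CPM in treated FLT3-ITD cells, against 150.1 and 142 CPM in FLT3-ITD controls 1 and 3 and 321 CPM in the library labelled control 2. CXCL8 was at 54.8, 58.2 and 54.5 CPM in treated OCI-AML3 cells, against 61.6, 64.4 and 53.0 CPM in OCI-AML3 controls. CXCL8 was higher in every FLT3-ITD control than in any other library, and the library labelled control 2 was the highest of all, so that for this gene it did not lie towards OCI-AML3. CXCL8 fell in FLT3-ITD (log2 fold change -1.68, SE 0.30, adjusted p = 0.00207; -1.20 and 3.91e-10 in the 10-library fit) and had a log2 fold change of -0.10 (SE 0.26, adjusted p = 0.798) in OCI-AML3. The FLT3-ITD call was lost when edgeR was fitted to the FLT3-ITD libraries alone (adjusted p = 0.0546). The difference between the effects was -1.59 (SE 0.39, adjusted p = 0.0558) with all libraries, which missed the threshold, and -1.10 (adjusted p = 5.84e-07) in the 10-library fit. Between the controls it was 1.78 (SE 0.26, adjusted p = 0.00149), with 1.29 (adjusted p = 1.31e-11) in the 10-library fit.

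CXCL1, CXCL2 and CXCL3 are near-identical neighbours on chromosome 4 that bind the same neutrophil receptor, so the counting may have split reads between them and their separate values are uncertain. Stretches of 60 bases around the kB consensus of the 3 promoters are shown, each with the consensus matched at overlapping positions and marked in capitals. They lie before the gene starts, so they do not bear on how reads were split.
CXCL1, chr4:73869289-73869348, plus strand: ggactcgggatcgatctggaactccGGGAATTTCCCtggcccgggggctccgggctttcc
CXCL2, chr4:74099239-74099298, minus strand: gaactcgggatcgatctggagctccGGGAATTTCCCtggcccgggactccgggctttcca
CXCL3, chr4:74038734-74038793, minus strand: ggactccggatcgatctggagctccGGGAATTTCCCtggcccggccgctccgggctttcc
Compared position by position, with no gaps, CXCL1 and CXCL3 differ at 4 of the 60 bases, CXCL1 and CXCL2 at 11, and CXCL2 and CXCL3 at 12. The end of the CXCL2 stretch is shifted by a base against the others, which adds to its differences. CXCL1 was at 25.04 and 21.5 CPM in treated FLT3-ITD cells, against 34.2 and 31.5 CPM in FLT3-ITD controls 1 and 3 and 25.1 CPM in the library labelled control 2, and at 20.6, 20.5 and 18.1 CPM in treated OCI-AML3 cells, against 14.98, 16.7 and 16.4 CPM in OCI-AML3 controls. Treated libraries were above the controls in OCI-AML3 and below controls 1 and 3 in FLT3-ITD. Treated FLT3-ITD replicate 1 and the library labelled control 2 were level, at 25.04 and 25.06 CPM. Neither change of CXCL1 passed the test with all libraries, at -0.38 (SE 0.14, adjusted p = 0.0581) in FLT3-ITD and 0.30 (SE 0.12, adjusted p = 0.0757) in OCI-AML3. Both did in the 10-library fit, at -0.50 (adjusted p = 0.000131) in FLT3-ITD and 0.30 (adjusted p = 0.00277) in OCI-AML3. CXCL3, at no more than 1.26 CPM in any library, rose in OCI-AML3 (log2 fold change 1.02, SE 0.25, adjusted p = 0.00777; 1.02 and 0.000399 in the 10-library fit) and had a log2 fold change of 0.15 (SE 0.27, adjusted p = 0.728) in FLT3-ITD. CXCL2, at no more than 1.63 CPM, had a log2 fold change of 0.55 (SE 0.23, adjusted p = 0.0936) in FLT3-ITD and 0.28 (SE 0.22, adjusted p = 0.34) in OCI-AML3. CXCL2 was called higher in FLT3-ITD in the 10-library fit, at 0.68 (adjusted p = 0.0168), and had 0.27 (adjusted p = 0.285) in OCI-AML3.

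CCL3, the monocyte attractant MIP-1-alpha, had 91 and 130 counts in treated FLT3-ITD cells, against 52 and 47 counts in FLT3-ITD controls 1 and 3 and 22 counts in the library labelled control 2. In OCI-AML3 it had 69, 68 and 95 counts with FHD-286, against 18, 11 and 15 counts in controls. Treated and control libraries did not overlap in CPM in either line. CCL3 rose in FLT3-ITD (log2 fold change 1.37, SE 0.34, adjusted p = 0.0124; 1.11 and 0.00167 in the 10-library fit), a call lost without treated FLT3-ITD replicate 2, and in OCI-AML3 (log2 fold change 1.98, SE 0.35, adjusted p = 0.00103; 1.99 and 2.05e-06 in the 10-library fit). Other genes overlap 74.6% of its exon length, and near-identical copies of it exist, so its counts are uncertain.

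The 3 cytokines were higher in FLT3-ITD than in OCI-AML3 controls, as were 14.5% of all genes, and IL1B had opposite signs in the lines with FHD-286. IL1B encodes interleukin-1 beta, a fever-inducing cytokine that activates NF-kB in the cells it reaches (ENSG00000125538.11, chromosome 2, 112829751 to 112836903, minus strand). It was at 57.8 and 41.0 CPM in treated FLT3-ITD cells, against 104 and 88.5 CPM in FLT3-ITD controls 1 and 3 and 21.4 CPM in the library labelled control 2. IL1B was at 51.6, 60.6 and 50.4 CPM in treated OCI-AML3 cells, against 12.9, 11.9 and 12.8 CPM in OCI-AML3 controls. The treated libraries of both lines lay between 41.0 and 60.6 CPM, the OCI-AML3 controls were lower, and FLT3-ITD controls 1 and 3 were higher. IL1B rose in OCI-AML3 (log2 fold change 2.11, SE 0.44, adjusted p = 0.00298; 2.12 and 6.13e-13 in the 10-library fit). Its log2 fold change in FLT3-ITD was -0.53 (SE 0.47, adjusted p = 0.436) with all libraries and -0.96 (adjusted p = 1.03e-06) in the 10-library fit. The difference between the effects was -2.64 (SE 0.65, adjusted p = 0.0563), which missed the threshold, and -3.08 (adjusted p = 1.18e-10) in the 10-library fit. FLT3-ITD controls were above OCI-AML3 controls by 2.51 (SE 0.45, adjusted p = 0.00327), the largest log2 difference of a member between the controls.

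TNF, the tumour necrosis factor itself, was at 39.0 and 35.6 CPM in treated FLT3-ITD cells, against 52.8 and 45.5 CPM in FLT3-ITD controls 1 and 3 and 32.2 CPM in the library labelled control 2. TNF was at 24.2, 27.8 and 24.1 CPM in treated OCI-AML3 cells, against 28.3, 28.6 and 29.3 CPM in OCI-AML3 controls. Treated libraries were below the controls in OCI-AML3, by a small amount, and within the range of the controls in FLT3-ITD. TNF did not pass the test with all libraries, at -0.22 (SE 0.17, adjusted p = 0.35) in FLT3-ITD and -0.18 (SE 0.15, adjusted p = 0.365) in OCI-AML3, and did in both lines in the 10-library fit, at -0.40 (adjusted p = 0.000748) in FLT3-ITD and -0.18 (adjusted p = 0.0411) in OCI-AML3. It was higher in FLT3-ITD than in OCI-AML3 controls (log2 difference 0.60, SE 0.15, adjusted p = 0.0151). LTB, lymphotoxin beta, a ligand of the alternative pathway, was at 0.728 and 0.867 CPM in treated FLT3-ITD cells, against 1.97 and 1.80 CPM in FLT3-ITD controls 1 and 3 and 1.31 CPM in the library labelled control 2. LTB fell in FLT3-ITD (log2 fold change -1.08, SE 0.27, adjusted p = 0.0128; -1.23 and 0.000219 in the 10-library fit), a call lost when either treated FLT3-ITD library was left out, had a log2 fold change of -0.26 (SE 0.25, adjusted p = 0.43) in OCI-AML3, and was higher in FLT3-ITD than in OCI-AML3 controls (log2 difference 0.99, SE 0.24, adjusted p = 0.0134).

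The effect of FHD-286 differed between the lines for 5 members, 4 with a higher value in FLT3-ITD and 1 with a lower. That is 11.4% and 2.9% of the members tested, beside 1.98% and 1.38% of all genes. These were NFKBIA, MAP3K8, BIRC3 and ICAM1, and, in the other direction, PLAUR. For ICAM1 the positive difference is a smaller fall in FLT3-ITD, and for PLAUR the negative difference is a smaller rise. In the 10-library fit 12 members were higher and 10 lower, beside 9.63% and 7.39% of all genes, and all 5 kept their direction and call. Members that passed the test of the difference in that fit and not with all libraries included TNFAIP3 at -0.83 (adjusted p = 3.26e-06), NFKB2 at 0.37 (adjusted p = 0.0149), RELB at 0.55 (adjusted p = 0.00112) and IER3 at -0.99 (adjusted p = 9.29e-05). None of the 5 calls held in every alternative: without treated FLT3-ITD replicate 1 no member passed the test of the difference.

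**Figure D4:**
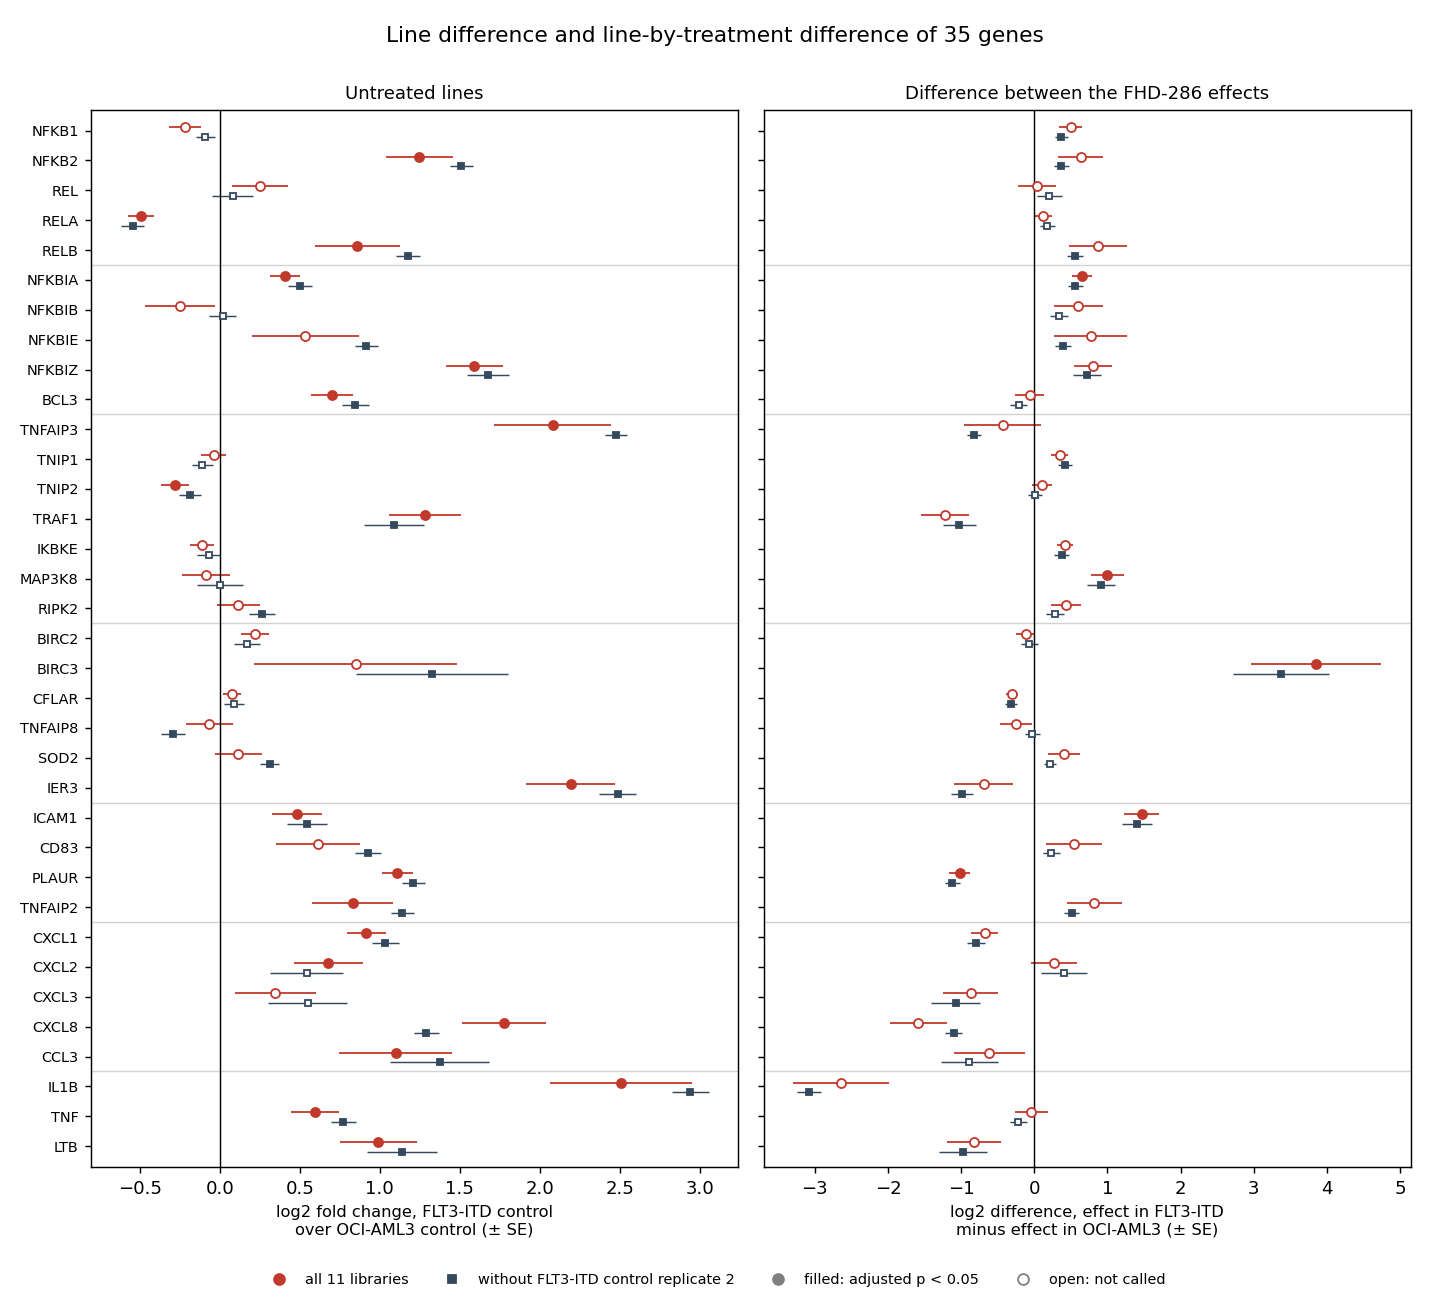
Log2 differences of 35 members between the lines, FLT3-ITD minus OCI-AML3, for the controls on the left and for the effect of FHD-286 on the right, with bars of 1 SE, circles for all 11 libraries, squares for the 10-library fit, and filled symbols at an adjusted p under 0.05. IL1B, IER3 and TNFAIP3 stand at 2.51, 2.19 and 2.08 on the left, and BIRC3 at 3.85 on the right.

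The other genes of the pathway were counted from 5 lists, whose counts stand beside 15.6% of all genes called higher and 14.9% lower in FLT3-ITD and 19.8% and 21.5% in OCI-AML3, and, in the 10-library fit, 24.8% and 24.2% in FLT3-ITD and 29.0% and 29.8% in OCI-AML3. Of 10 genes of the IkB kinase complex and the kinases upstream of it, 5 rose and 0 fell in FLT3-ITD and 4 rose and 0 fell in OCI-AML3, with median log2 fold changes of 0.325 in FLT3-ITD and 0.145 in OCI-AML3. The 10-library fit gave 7 and 1 in FLT3-ITD and 5 and 0 in OCI-AML3. RIPK1, the kinase that joins the tumour necrosis factor receptor to the IkB kinases, was at 66.3 and 67.2 CPM in treated FLT3-ITD cells, against 41.4 and 43.9 CPM in FLT3-ITD controls 1 and 3 and 37.3 CPM in the library labelled control 2. Its levels in OCI-AML3 were 77.6, 74.4 and 76.7 CPM in treated OCI-AML3 cells, against 54.4, 56.1 and 57.6 CPM in OCI-AML3 controls. RIPK1 rose in FLT3-ITD (log2 fold change 0.71, SE 0.08, adjusted p = 8.16e-05) and in OCI-AML3 (log2 fold change 0.44, SE 0.07, adjusted p = 0.000491), and TBK1, the close relative of IKK-epsilon, had a log2 fold change of 0.61 (SE 0.10, adjusted p = 0.00123) in FLT3-ITD and 0.33 (SE 0.09, adjusted p = 0.0141) in OCI-AML3. Of 16 receptors 14 were tested, of which 2 rose and 6 fell in FLT3-ITD and 4 rose and 5 fell in OCI-AML3, with 4 and 7 in FLT3-ITD and 6 and 6 in OCI-AML3 in the 10-library fit. The receptor IL1R1, which binds interleukin-1, rose by 2.37 (SE 0.25, adjusted p = 7.97e-05) in FLT3-ITD and 2.49 (SE 0.24, adjusted p = 1.81e-05) in OCI-AML3, and TLR4, the receptor of bacterial lipopolysaccharide, had a log2 fold change of -1.49 (SE 0.11, adjusted p = 7.02e-06) in FLT3-ITD and -0.88 (SE 0.10, adjusted p = 4.24e-05) in OCI-AML3.

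Adaptors and ubiquitin ligases numbered 18, of which 4 rose and 3 fell in FLT3-ITD and 2 rose and 3 fell in OCI-AML3. The 10-library fit gave 6 and 5 in FLT3-ITD and 8 and 6 in OCI-AML3. MYD88, the adaptor shared by Toll-like and interleukin-1 receptors, fell in both, with -0.51 (SE 0.08, adjusted p = 0.000661) in FLT3-ITD and -0.53 (SE 0.07, adjusted p = 0.000134) in OCI-AML3. Of 12 deubiquitinases and other brakes, 2 rose and 1 fell in FLT3-ITD and 4 rose and 2 fell in OCI-AML3, with 4 and 1 in FLT3-ITD and 5 and 3 in OCI-AML3 in the 10-library fit. PDLIM2, which targets nuclear p65 for degradation, was at 3.86 and 3.95 CPM in treated FLT3-ITD cells, against 18.4 and 18.4 CPM in FLT3-ITD controls 1 and 3 and 25.5 CPM in the library labelled control 2. Its levels in OCI-AML3 were 8.05, 8.13 and 8.23 CPM in treated OCI-AML3 cells, against 27.6, 25.9 and 31.1 CPM in OCI-AML3 controls, and it fell in FLT3-ITD (log2 fold change -2.41, SE 0.16, adjusted p = 4.12e-06) and in OCI-AML3 (log2 fold change -1.79, SE 0.14, adjusted p = 4.11e-06). CYLD, a deubiquitinase of the pathway, rose by 0.67 (SE 0.08, adjusted p = 0.000145) in FLT3-ITD and 0.33 (SE 0.07, adjusted p = 0.00343) in OCI-AML3.

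Of 25 other induced cytokine, chemokine and adhesion genes 17 were tested. In FLT3-ITD 4 rose and 10 fell, with a median of -1.37, and in OCI-AML3 4 rose and 6 fell, with a median of -0.30. Between the controls 10 were higher in FLT3-ITD and 0 lower, with a median of 1.75, beside 14.5% and 13.5% of all genes. The 10-library fit gave 4 rises and 11 falls in FLT3-ITD, with a median of -0.91, 4 and 9 in OCI-AML3, with a median of -0.30, and 13 and 4 between the controls, with a median of 1.95. Between the controls 24.1% of all genes were called higher and 25.4% lower in that fit. CCL5, a T cell and monocyte attractant, was at 42.5 and 37.5 CPM in treated FLT3-ITD cells, against 136 and 108 CPM in FLT3-ITD controls 1 and 3 and 168 CPM in the library labelled control 2, and at 77.1, 82.0 and 77.3 CPM in treated OCI-AML3 cells, against 158, 147 and 168 CPM in OCI-AML3 controls. Every treated library was below every control of its line, with -1.78 (SE 0.16, adjusted p = 2.5e-05) in FLT3-ITD and -1.0 (SE 0.14, adjusted p = 0.000193) in OCI-AML3. PTGS2, the inducible cyclooxygenase, moved the other way, at 15.8 and 13.1 CPM in treated FLT3-ITD cells, against 3.85 and 4.62 CPM in FLT3-ITD controls 1 and 3 and 1.46 CPM in the library labelled control 2, and at 11.4, 11.2 and 12.7 CPM in treated OCI-AML3 cells, against 1.33, 1.58 and 1.19 CPM in OCI-AML3 controls, with 2.12 (SE 0.35, adjusted p = 0.00124) in FLT3-ITD and 3.10 (SE 0.35, adjusted p = 5.63e-05) in OCI-AML3.

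IL1RN, the interleukin-1 receptor antagonist, had opposite directions in the lines, as IL1B did in the 10-library fit. It was at 41.0 and 33.7 CPM in treated FLT3-ITD cells, against 72.1 and 67.8 CPM in FLT3-ITD controls 1 and 3 and 58.9 CPM in the library labelled control 2, and at 73.2, 76.8 and 70.0 CPM in treated OCI-AML3 cells, against 49.97, 49.1 and 51.9 CPM in OCI-AML3 controls. Treated libraries were below the controls in FLT3-ITD and above them in OCI-AML3. IL1RN fell in FLT3-ITD (log2 fold change -0.83, SE 0.11, adjusted p = 0.00026) and rose in OCI-AML3 (log2 fold change 0.54, SE 0.09, adjusted p = 0.00092), and the difference between the effects was -1.37 (SE 0.14, adjusted p = 0.00172) by the same test.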

How the data were processed

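The authors deposited raw counts per gene, whole numbers for 58037 Ensembl identifiers. The aligner was STAR and the build hg38, per the submitters' processing notes. The counter, strand setting and annotation are not given in the sources used here. Overlapping or antisense genes therefore cannot be separated. Coordinates are from GENCODE on GRCh38. Genes were filtered with filterByExpr (minimum count 10, minimum total 15) and scaled by TMM. A quasi-likelihood model of edgeR 4.0.16 (R 4.3.3), with each group's mean as a term and 7 residual degrees of freedom, was tested two-sided. Standard errors (SE) are the absolute log2 fold change over the square root of F. Adjusted p-values are Benjamini-Hochberg over 18908 genes, with a threshold of 0.05. The biological coefficient of variation was 0.193, and 0.0652 without the library labelled FLT3-ITD control 2. Replicate libraries were checked against each other and none was a duplicate. Simulated counts with known changes were used to test the model.

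The members, the gene lists and the tests were chosen with earlier results of these data known. Every member could be named, and of each other list up to 3 called genes with the smallest p in each direction. The alternatives were DESeq2 size factors, upper quartile factors or library totals, no filter, a filter at 1 CPM in 3 or more libraries, DESeq2 1.42.0 (Wald test), only the groups compared, a replicate block, and each library left out in turn. No set test was run.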

Additional observations from a re-analysis of the deposited data

Results flagged for a closer look

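For 5 members the effect of FHD-286 in FLT3-ITD differed from that in OCI-AML3 by edgeR's test of the difference itself. Of the members tested 11.4% were called higher and 2.9% lower, beside 1.98% and 1.38% of all genes. The difference, FLT3-ITD minus OCI-AML3, was 3.85 on the log2 scale for BIRC3 (SE 0.89, adjusted p = 0.0442), which was at no more than 0.225 CPM except in the 2 treated FLT3-ITD libraries. It was 0.65 for NFKBIA (SE 0.14, adjusted p = 0.0341) and 0.998 for MAP3K8 (SE 0.22, adjusted p = 0.039), again with both treated FLT3-ITD libraries above the other 9. For ICAM1 it was 1.47 (SE 0.24, adjusted p = 0.0105) and for PLAUR -1.02 (SE 0.14, adjusted p = 0.00609), with the same direction of change in both lines and a smaller size in FLT3-ITD. None of these calls held when treated FLT3-ITD replicate 1 was left out, which leaves 1 treated FLT3-ITD library. Of the 11 fits that left out 1 library, NFKBIA and MAP3K8 each lost the call in 9 and BIRC3 in 8. ICAM1 and PLAUR each lost it in 1.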

How the results depend on the processing

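No called member changed direction under any scaling, filter or test tried. Of values called under either setting 1 reversed: TNFAIP3 in FLT3-ITD, at -0.28 without the library labelled FLT3-ITD control 2, in a range of -0.28 to 0.41 over the fits that left out 1 library. Values called under neither setting changed sign 12 times in FLT3-ITD, 15 in OCI-AML3, 13 for the difference and 14 between the controls. Of the called members, 8 of 17 in FLT3-ITD, 15 of 17 in OCI-AML3, 11 of 20 between the controls and 0 of 5 for the difference between effects passed under every alternative. A fit of only the groups compared called 1618 genes in FLT3-ITD, against 5767, with 6 members higher and 2 lower, and 1736 genes between the controls, against 5289, with 11 members higher; for OCI-AML3 it called 11333, against 7816, with 13 members higher and 11 lower. The cause was not tested. Between the controls 1 member was lower, against 2, with library totals, with no filter, with only the groups compared and with the replicate block. For the difference between effects the members lower, 1 in the report, were 4 with upper quartile factors, 5 with no filter, 5 with the stricter filter and 6 with DESeq2's Wald test, which called 1467 genes, against 635. Upper quartile factors gave 62.6% of calls higher between the controls, against 51.8%. For the difference between effects they gave 45.2%, and no filter 40.7%, against 59.1%.

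Whether replicate numbers pair the libraries is not stated in the labels. Same-numbered deviations from the group means correlated at -0.11 to 0.04 in OCI-AML3, 0.06 and 0.09 in FLT3-ITD and 0.02 to 0.19 between the controls. In OCI-AML3 0 of 3 libraries correlated best with their own number, and between the controls 2 of 3 did. With so few libraries a group, these values neither show a pairing nor exclude it. With the replicate block 12 members were higher and 5 lower in FLT3-ITD, 9 and 6 in OCI-AML3, 17 and 1 between the controls and 3 and 1 for the difference, which called 349 genes. NFKBIB and TNIP2 lost their calls in OCI-AML3, RELB and TNIP2 between the controls, and MAP3K8 for the difference.

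Leaving out 1 library at a time, FLT3-ITD gave 2908 to 9140 called genes, with 8 to 17 members higher and 4 to 13 lower. OCI-AML3 gave 6132 to 10973 genes, with 9 to 13 and 6 to 11 members. The difference gave 105 to 3177 genes, with 0 to 12 and 0 to 10 members, and the controls 2914 to 9223 genes, with 11 to 22 and 1 to 3 members. The highest gene counts came without the library labelled FLT3-ITD control 2 and the lowest, for FLT3-ITD and the difference, without treated FLT3-ITD replicate 1. Without it BIRC2 and NFKB1 lost their FLT3-ITD calls, CCL3 did without treated replicate 2, and LTB, NFKB2 and PLAUR when either was left out. In OCI-AML3 NFKBIB and TNIP2 lost theirs in 9 such fits each. Levels near 0.05 CPM, as of CCL4 and of BIRC3 in OCI-AML3, are limited by depth.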
